A study of Mus musculus with 4 samples.

Results

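Alveolar type I marker genes are genes that are known to be active in type I cells, the thin epithelial cells across which the lung exchanges gas. The 10 genes described here (Ager, Aqp5, Hopx, Cav1, Cav2, Pdpn, Akap5, Clic5, Gprc5a and Emp2) were chosen by name as known type I genes, with earlier results of these data known. All 10 were found among the 28096 gene identifiers of the deposited tables. They were followed in 4 RNA-seq libraries of mouse alveolar type II cells, the surfactant-making epithelial cells of the alveolus, all with the genotype label KRasEtv wt. The series' design text lists 3 genotypes of 4 mice each, all of which carry KRaswt/d12 and RosaCreERT2, a Cre recombinase at the Rosa locus that tamoxifen activates. The other 2 genotypes add Etv5loxp/loxp, or Etv4KO/KO with Etv5loxp/loxp. The labels do not tie KRasEtv wt to any of these genotypes, and they give no age of the mice. Cells had been sorted for EpCAM and against CD24, CD45, CD31 and podoplanin, and were then grown in matrigel in BEGM medium for 4 days with 100 nM 4-hydroxytamoxifen and for 1 further day without it. There is a single group, so no condition can be compared with another.

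Type I and type II cells line the same alveoli, and type II cells are the progenitors from which type I cells are renewed. Type I cells are flat, carry many caveolae, and are known for water channels and surface glycoproteins that type II cells have little of. Type II cells placed in culture are known to take up type I genes while they lose surfactant genes. None of the 10 markers is specific to type I cells in the whole body: caveolin genes are also active in endothelium and fibroblasts, Pdpn in lymphatic endothelium, mesothelium and basal cells, Hopx in heart and skin, and Gprc5a in many epithelia.

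Library totals lay between 12133251 and 13591876 counts. The replicates are numbered 1 to 4 in accession order, because the labels give no number, and are called libraries 1 to 4. Nothing in the labels says that they came from separate animals, so p-values measure only the spread between these libraries. Whether that spread is technical or lies between animals was not tested. The mitochondrial ribosomal RNAs took 23.0%, 35.1%, 19.6% and 38.9% of the counts of libraries 1 to 4, and the authors' size factors raise libraries 2 and 4 against a scaling to total counts. Against total counts, the deposited scale lies at -0.21, 0.09, -0.16 and 0.28 on the log2 scale in libraries 1 to 4. The highest and lowest libraries of the 10 type I marker genes are therefore given with both. Values of other genes and of lists are on the deposited scale unless stated. Library 1 stood apart in the lists of other epithelial states: its median type II marker had 99.7 nRPKM (the authors' size-factor-adjusted RPKM, that is, reads scaled for library size and gene length) against 175 to 228 in the others, and its median transitional marker, of cells between the types, had 146 against 49.0 to 75.7. In bulk samples, fewer cells of a type and less RNA per cell cannot be told apart. Of 15 type II markers, all 15 had a mean of at least 10 nRPKM, against 13.9% of all genes. The list was chosen with earlier results of these data known, so this count does not verify the labelled cell type. Of 5 markers of club cells, an airway cell type, 3 also reached that level. The club marker Scgb1a1 had 239, 880, 93.0 and 188 nRPKM in libraries 1 to 4.

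All 10 type I marker genes were expressed in every library. Their mean levels ran from 11.6 nRPKM for Cav1 to 223 for Gprc5a, with a list median of 53.0, while the median over all genes was 0.345 nRPKM. A mean of at least 10 nRPKM was found for 10 of 10, against 13.9% of all genes, and of at least 100 for 4 of 10, against 0.826%. Because the genes were chosen with earlier results of these data known, these counts are a description only. Together the 10 genes took 0.407% of the counts of library 1 (95% Wilson interval 0.404 to 0.411), 0.273% of library 2 (0.270 to 0.276), 0.387% of library 3 (0.384 to 0.391) and 0.234% of library 4 (0.231 to 0.236). PCR copies carry no mark in these data, so the intervals describe counting error alone. Each level rested on at least 496 reads, so counting error was at most 4.49% of a value. Spread between libraries was larger than that for all 10 genes.

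**Figure D1:**
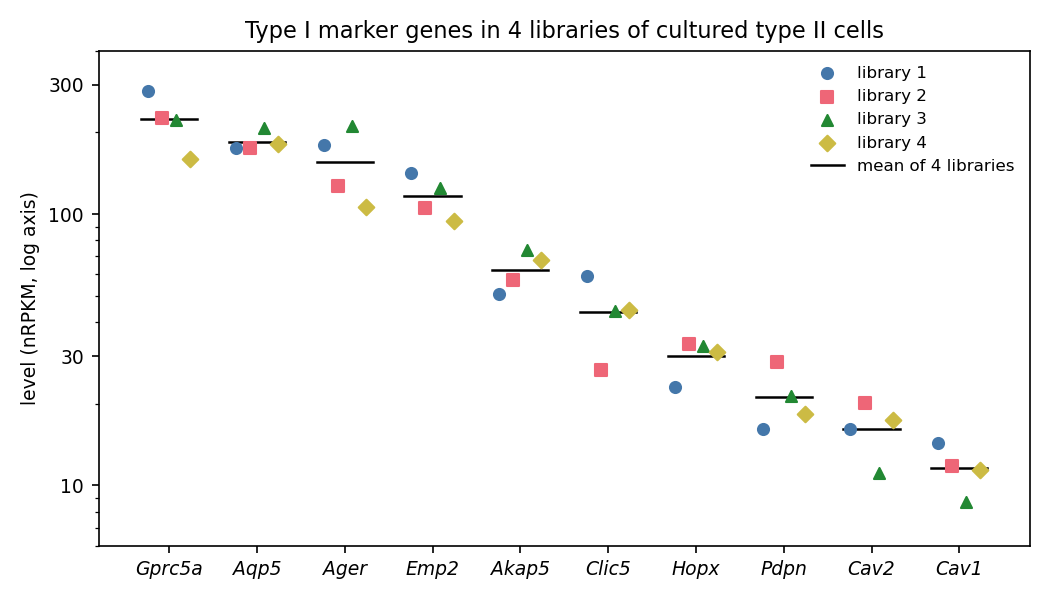
Level of each type I marker gene in nRPKM (log axis) in libraries 1 to 4 (symbols) with the mean over the 4 libraries (bars). Gprc5a, Aqp5, Ager and Emp2 have means above 100 nRPKM, while Cav1 lies lowest at 11.6.

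Aqp5 encodes a water channel of the apical membrane of type I cells. It had 175.2, 174.9, 208 and 181 nRPKM in libraries 1 to 4, a mean of 185 ± 15.6 (SD, n = 4). Library 3 was highest and the other 3 lay close together, so that the highest value was 1.19 times the lowest, the narrowest range among the 10 genes on the deposited scale. With a scaling to total counts, the range was 1.55-fold and library 4 was lowest in place of library 2. Among the promoters of members, that of Aqp5 had the most G and C, 78.4% against a median of 52.4% over 32851 mouse promoters. It is shown because it was the most extreme in composition of the members and held the SP1 letters at more than 1 place. The sequence runs over the 250 bases before the RefSeq start, at chr15:99590778-99591027 of GRCm38.p6, plus strand, and capitals mark GGGCGG, the box bound by SP1, read on both strands, which begins 77 and 34 bases before the start.
Aqp5: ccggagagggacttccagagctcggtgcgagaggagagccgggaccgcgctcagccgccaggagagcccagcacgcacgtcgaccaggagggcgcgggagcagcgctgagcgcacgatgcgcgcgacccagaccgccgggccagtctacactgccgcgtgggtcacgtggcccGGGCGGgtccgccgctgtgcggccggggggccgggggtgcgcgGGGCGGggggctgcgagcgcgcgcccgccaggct

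Ager encodes RAGE, a receptor of the immunoglobulin superfamily that is abundant on type I cells. Its levels were 180.2, 127, 211 and 106 nRPKM in libraries 1 to 4, with a mean of 156 ± 48.1 (SD, n = 4). Libraries 1 and 3 were high and libraries 2 and 4 were low, under both scalings, and the highest value was 1.98 times the lowest (2.68 times by total counts). Libraries 2 and 4 also had the larger share of mitochondrial ribosomal RNA, and its part in this order was not tested. Without library 1 the mean was 148 ± 55.6 (SD, n = 3). Of the genes for RAGE ligands and its adaptor, S100a6, which encodes a calcium-binding protein, was high at 419 nRPKM and was uneven, with 861 in library 1 and 191 to 331 in the others. Diaph1, the formin that binds the tail of RAGE, had 9.82 ± 1.21 nRPKM. S100a4 had 20.4, 5.42, 0.670 and 4.43 nRPKM in libraries 1 to 4 and S100a8 4.88, 1.44, 0.122 and 0, so both means (7.74 and 1.61) rested on library 1, without which they were 3.50 and 0.520. S100b and S100a9 lay below 1. Hmgb1, at 0.431 nRPKM, and S100a4 share 36.8% and 56.3% of the 50-base words of their longest transcripts with other genes, so their levels are uncertain.

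Gprc5a encodes an orphan receptor of the plasma membrane that retinoic acid induces. It was the highest of the 10 genes, with 284, 227, 223 and 160.0 nRPKM in libraries 1 to 4 and a mean of 223 ± 50.6 (SD, n = 4). Library 1 was highest and library 4 lowest under both scalings, and Gprc5a ranked between 65 and 116 among all genes of a library. Its relatives were far lower: Gprc5b had 5.16 nRPKM and Gprc5c 1.18, and Gprc5d had at most 1 read in a library. Gprc5a exceeded Gprc5b by 44.2 ± 12.2 times (SD, n = 4), and lay above it in 4 of 4 libraries.

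Emp2 encodes a membrane protein with 4 spans that is prominent in type I cells. Its values were 141, 106, 125 and 94.2 nRPKM in libraries 1 to 4, a mean of 116 ± 20.7 (SD, n = 4). The order of the libraries was 1, 3, 2 and 4 under both scalings, with a range of 1.50-fold on the deposited scale and 2.10-fold by total counts. Emp1, the nearest relative in level, had 64.3, 56.8, 61.3 and 82.7 nRPKM, so Emp2 lay above Emp1 in 4 of 4 libraries by 1.81 ± 0.466 times. In library 4 the 2 genes came closest, at a ratio of 1.14. Pmp22, known from myelin, had 8.78 nRPKM and Emp3 4.89, and Lim2, a lens gene, had no read in any library.

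Pdpn encodes podoplanin, a mucin-like glycoprotein of the type I cell surface, and antibody to this protein had been used to exclude cells from the sort. After culture its RNA was at 16.2, 28.4, 21.4 and 18.4 nRPKM in libraries 1 to 4, a mean of 21.1 ± 5.34 (SD, n = 4), from 530 to 893 reads. Library 2 was highest under both scalings, and the lowest was library 1 on the deposited scale and library 4 by total counts. RNA before culture was not analysed here, so these values do not tell whether the transcript rose after the sort. Podoplanin binds ezrin-family proteins, which link membranes to actin: Msn had 254 ± 62.3 nRPKM, Ezr 59.8 and Rdx 27.3. The surface partners Cd9 and Cd44 had 94.9 and 44.5 nRPKM and Lgals8, a galectin, had 20.5. Clec1b, the platelet receptor for podoplanin, had at most 2 reads in a library.

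Other cells that make podoplanin were sought by their markers. A mean of at least 1 nRPKM was found for 42.4% of all genes, the share to set beside each count here. Of 6 lymphatic endothelial genes, 0 had a mean of at least 1 nRPKM, the sum of the list lay between 0.325 and 1.10, and Ccl21a and Mmrn1 had no read in any library. Ccl21a shares 71.6% of its 50-base words with other genes, so its 0 uniquely aligned reads leave its level uncertain. Of 6 mesothelial genes, 2 had at least 1 nRPKM (Upk1b and Msln, at 11.3 and 10.9), the list's sum ranged from 11.7 to 39.9, and Upk3b had no read in any library. The 8 basal cell genes summed to 159, 112, 22.3 and 52.5 nRPKM in libraries 1 to 4, with 6 of 8 at a mean of at least 1, and were led by Krt5, Krt6a (45.5% of words shared with other genes) and Krt14. The basal sum was highest in library 1, next in library 2 and lowest in library 3. On the deposited scale Pdpn was highest in library 2 (28.4 nRPKM) and lowest in library 1 (16.2). The part of basal cells in the Pdpn level was not tested.

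Cav1 and Cav2 encode the caveolins, the coat proteins of caveolae, of which Cav2 needs Cav1 to reach the membrane. Cav1 was at 14.3, 11.8, 8.67 and 11.4 nRPKM in libraries 1 to 4, a mean of 11.6 ± 2.31 (SD, n = 4). Cav2 was at 16.2, 20.2, 11.1 and 17.4 nRPKM, a mean of 16.2 ± 3.80 (SD, n = 4). Both genes were lowest in library 3 on the deposited scale; by total counts Cav2 was still lowest there and Cav1 was lowest in library 4. Cav2 lay above Cav1 in 4 of 4 libraries, by 1.41 ± 0.255 times. The log2 difference was 0.45 ± 0.25 (p = 0.125 by exact permutation of signs over libraries, two-sided, which is as low as this design can go). These genes are neighbours on chromosome 6, and the 250 bases before the start of each are shown because the pair was lowest in the same library. They are on the plus strand at chr6:17280935-17281184 (Cav2) and chr6:17306085-17306334 (the first of 2 RefSeq starts of Cav1). Capitals mark GGGCGG (SP1), TATAAA (the letters of a TATA box, at any distance from the start) and TGANTCA (AP-1), each read on both strands.
Cav2: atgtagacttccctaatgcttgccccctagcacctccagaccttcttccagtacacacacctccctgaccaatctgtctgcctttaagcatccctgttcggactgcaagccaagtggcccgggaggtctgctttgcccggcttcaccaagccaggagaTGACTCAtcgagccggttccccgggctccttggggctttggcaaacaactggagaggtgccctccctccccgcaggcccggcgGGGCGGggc
Cav1: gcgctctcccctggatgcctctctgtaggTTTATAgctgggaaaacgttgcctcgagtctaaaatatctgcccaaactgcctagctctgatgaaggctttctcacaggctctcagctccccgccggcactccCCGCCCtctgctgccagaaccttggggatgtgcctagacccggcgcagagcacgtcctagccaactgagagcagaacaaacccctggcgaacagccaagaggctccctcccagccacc
In the Cav2 promoter the AP-1 letters begin 92 bases and the SP1 letters 9 bases before the start. In that of Cav1 the TATA letters begin 221 bases before the start, read on the minus strand, and the SP1 letters 118 bases before it. Between these 2 promoters the only shared match was the SP1 box.

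The other genes of the caveola ranged from above the caveolins to no read. Ehd2, an ATPase at the neck of caveolae, had 62.7 ± 10.1 nRPKM and exceeded Cav1 by 5.71 ± 1.97 times. Cavin1, which is required for caveolae, had 19.1 ± 3.18 nRPKM, lay above Cav1 in 4 of 4 libraries, and was highest in library 3, where Cav1 was lowest on the deposited scale. Pacsin2 (24.6), Cavin2 (17.0) and Cavin3 (3.02) were also present, Cavin4, a muscle gene, had 0.559, and the muscle caveolin gene Cav3 had no read in any library. Of the family list, 7 of 9 genes had a mean of at least 1 nRPKM, against 42.4% of all genes. Among endothelial markers 2 of 12 reached 1 nRPKM, Esam at 15.4 and Egfl7 at 2.05, with Calcrl next at 0.398. The defining endothelial genes Pecam1 and Cdh5 had 0.112 and 0.0910, and the whole list summed to 13.9 to 22.4 nRPKM. Mesenchymal markers reached 1 nRPKM for 6 of 12, near the share of all genes. They summed to 484, 469, 560.2 and 444 nRPKM in libraries 1 to 4, of which Sparc alone gave 454, 448, 553 and 429. The sum and Sparc were thus highest in library 3, while the median of the list was lowest there (0.453, against at least 0.988 in the other libraries). Dcn, a proteoglycan gene of fibroblasts, had 14.1, 4.41, 0.962 and 2.56 nRPKM in libraries 1 to 4, and Col1a1 6.04, 6.66, 1.88 and 3.79. Like Cav1 and Cav2 on the deposited scale, these 2 genes were lowest in library 3, unlike Sparc, and Tagln was lowest in library 1 (1.30). The part of mesenchymal cells in the caveolin levels was not tested.

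**Figure D2:**
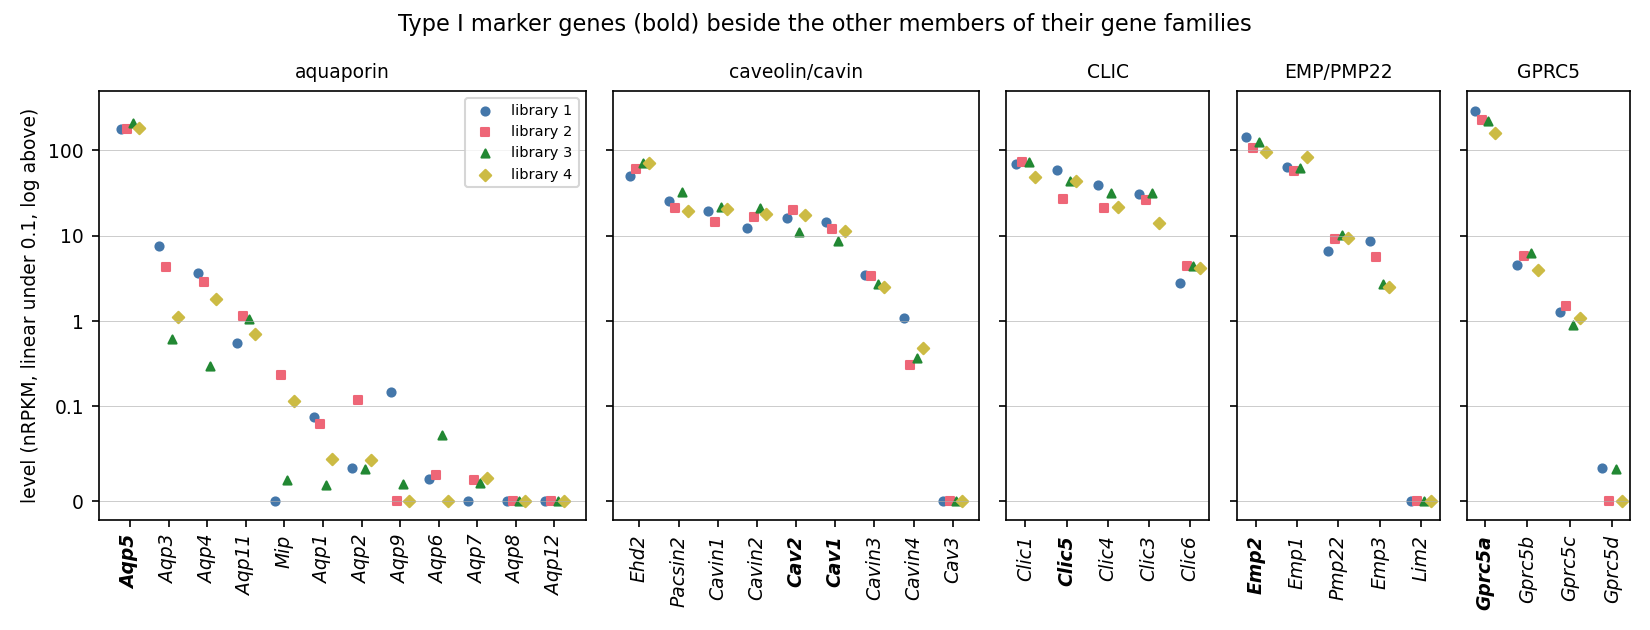
Levels in nRPKM (linear under 0.1, log above) of the genes of 5 families in libraries 1 to 4 (symbols), with type I marker genes in bold. Aqp5 and Gprc5a stand far above their relatives, whereas Cav1, Cav2 and Clic5 lie among theirs.

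Aqp5 was alone at this level in its family. Of 12 aquaporin genes, 3 had a mean of at least 1 nRPKM, against 42.4% of all genes. Beside Aqp5 these were Aqp3 at 3.40 and Aqp4 at 2.17, both of which are known from airway epithelium. Aqp3 had 7.54, 4.31, 0.623 and 1.11 nRPKM in libraries 1 to 4, and Aqp4 3.68, 2.88, 0.301 and 1.81. Like the sum of the basal markers, both peaked in library 1 and were least in library 3, where Aqp5 was highest. The ratio of Aqp5 to Aqp3 ran from 23.2 in library 1 to 333 in library 3. Aqp11 had 0.863 nRPKM, while Mip, Aqp1 (the endothelial water channel), Aqp2, Aqp6, Aqp7 and Aqp9 had at most 9 reads in any library. Aqp8 and Aqp12 had no read in any library.

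Clic5 encodes a protein of the chloride intracellular channel family that associates with ezrin and actin. It was at 59.4, 26.7, 43.9 and 44.2 nRPKM in libraries 1 to 4, a mean of 43.5 ± 13.4 (SD, n = 4). Library 1 was highest and library 2 lowest under both scalings, 2.23-fold apart on the deposited scale and 2.74-fold by total counts, the widest range of the 10 genes. Without library 1 the range was 1.66-fold. Clic1, the most widely expressed member of the family, had 65.6 ± 11.3 nRPKM and lay above Clic5 in 4 of 4 libraries, by 1.11 to 2.71 times. Clic4 had 28.2, Clic3 25.5 and Clic6 3.95 nRPKM. Clic4 was, like Clic5, highest in library 1 (39.2) and lowest in library 2 (21.0), although library 4 lay next to it (21.4) and was below it by total counts.

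Akap5 encodes an anchoring protein that holds protein kinase A and the phosphatase calcineurin at the membrane. Its levels were 50.8, 57.0, 73.9 and 67.8 nRPKM in libraries 1 to 4, a mean of 62.4 ± 10.4 (SD, n = 4). Library 3 was highest under both scalings, and the lowest was library 1 on the deposited scale and library 2 by total counts. The kinase subunit genes Prkar2a (40.04), Prkaca (29.5), Prkacb (13.2) and Prkar2b (1.23) and the calcineurin genes Ppp3ca (36.7), Ppp3r1 (15.2) and Ppp3cb (8.83) each had a lower mean than Akap5. Of the regulatory subunits that such anchors bind, Prkar2a was above Prkar2b in every library.

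Hopx encodes a small homeodomain protein that binds no DNA itself and acts through partners such as SRF. It was at 23.0, 33.2, 32.5 and 31.1 nRPKM in libraries 1 to 4, a mean of 29.97 ± 4.72 (SD, n = 4). Library 1 lay below the other 3, which differed by 1.07-fold among themselves, so that without library 1 the mean was 32.3 ± 1.06 (SD, n = 3). By total counts library 4 was lowest and the range was 1.41-fold. An antisense gene, Hopxos, overlaps Hopx in the GENCODE annotation, another, Gm15581, overlaps Cav1 and Cav2, and strand use is not given in the sources used here, so reads of these pairs cannot be told apart. Hopx partners and factors known to act in type I fate all had a mean of at least 1 nRPKM, 13 of 13, against 42.4% of all genes. Nkx2-1, the lung lineage factor, led with 94.6 ± 32.7 nRPKM. As Hopx on the deposited scale, Nkx2-1 had its least value in library 1 (62.4) and its greatest in library 2 (140.2). By total counts its least value was in library 4 and its greatest still in library 2. Klf5 followed with 38.3 and Hdac2, a deacetylase recruited by Hopx, with 26.7. The YAP pathway genes Tead1, Wwtr1 and Yap1 had 19.1, 18.1 and 14.3 nRPKM, and Tead4, Tead2 and Tead3 2.41, 1.42 and 1.40. Gata6 had 12.4, Foxa2 10.1, Foxa1 7.31 and Srf 4.65.

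Promoters of members were searched for the letters of 6 motifs because the series concerns target genes of Etv factors. RefSeq promoters of GRCm38.p6 were found for 9 of the 10 members, with 11 starts. AGGAAG, the core bound by PEA3 factors such as Etv5, stood in the 250 bases before the start of Ager and of the first of 2 Hopx starts, 2 of 11 promoters, and in 29.5% of 32851 promoters of all genes. GGAATG, bound by TEAD factors, whose letters can overlap the PEA3 core, stood in 0 of 11 against 12.6%. GGGCGG stood in 6 of 11 (Akap5, Aqp5, Cav1, Cav2, Clic5 and Emp2) against 32.7%. The letters TATAAA stood in 1 of 11 (12.4% of all), that of Cav1, on the minus strand and 221 bases before the start. The AP-1 letters stood in 1 of 11 (6.75%), as did the letters CTCAAG, bound by NKX2-1 (13.3%). Such matches are a description, since binding was not measured. The pair with the PEA3 letters is printed with every motif match in capitals: Ager at chr17:34597600-34597849, plus strand, with AGGAAG 211 bases before the start, and Hopx at chr5:77115124-77115373, minus strand, with AGGAAG 76 bases and the NKX2-1 letters, on the opposite strand of the gene, 112 bases before it.
Ager: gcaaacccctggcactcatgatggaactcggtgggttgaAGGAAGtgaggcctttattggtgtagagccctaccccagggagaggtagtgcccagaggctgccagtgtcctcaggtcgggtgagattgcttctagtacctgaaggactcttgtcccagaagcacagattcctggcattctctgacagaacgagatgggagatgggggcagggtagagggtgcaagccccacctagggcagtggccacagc
Hopx: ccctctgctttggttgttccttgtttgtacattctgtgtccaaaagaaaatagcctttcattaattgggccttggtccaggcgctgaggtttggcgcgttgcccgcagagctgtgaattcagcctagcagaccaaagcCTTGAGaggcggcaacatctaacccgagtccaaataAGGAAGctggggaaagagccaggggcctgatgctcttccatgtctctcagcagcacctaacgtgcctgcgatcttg

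The order of levels was compared per length, for all 45 pairs of the 10 genes within each library. In 39 pairs the same gene was higher in 4 of 4 libraries, and in 6 it was not. By mean level the order was Gprc5a, Aqp5, Ager, Emp2, Akap5, Clic5, Hopx, Pdpn, Cav2 and Cav1. Among its 9 pairs of neighbours, 4 kept their order in every library: Ager over Emp2, Emp2 over Akap5, Hopx over Pdpn and Cav2 over Cav1, with log2 differences of 0.39 ± 0.26, 0.89 ± 0.42, 0.50 ± 0.22 and 0.45 ± 0.25. For all 4 the exact permutation test gave p = 0.125, the least that 4 libraries permit, and 0.144 after Benjamini-Hochberg adjustment over the 45 pairs. The neighbours Gprc5a and Aqp5 (0.25 ± 0.37), Aqp5 and Ager (0.29 ± 0.39), Akap5 and Clic5 (0.55 ± 0.55), Clic5 and Hopx (0.48 ± 0.67) and Pdpn and Cav2 (0.36 ± 0.41) changed order between libraries. Their exact permutation p ran from 0.25 to 0.5 (adjusted 0.262 to 0.5). Since this test cannot go below 0.125 with 4 libraries, it cannot separate the order of any pair from the spread. That holds for the pairs that kept their order as well as for those that changed it. The sixth pair without a fixed order was Clic5 and Pdpn, since Clic5 lay below Pdpn in library 2 alone. In that library Clic5 also lay below Hopx, at 0.803 times its level.

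The 10 genes did not share an order of the libraries. On the deposited scale 4 were highest in library 1 (Gprc5a, Emp2, Clic5 and Cav1), 3 in library 2 (Hopx, Pdpn and Cav2) and 3 in library 3 (Aqp5, Ager and Akap5). The lowest value was in library 1 for 3 genes, in library 2 for 2, in library 3 for 2 and in library 4 for 3. With TMM scaling of the counts these numbers were the same. By total counts, 7 of 10 were lowest in library 4 and 0 in library 1, while 4 were highest in library 1, 2 in library 2 and 4 in library 3. Which library is lowest therefore depended on the scaling for Aqp5, Akap5, Hopx, Pdpn and Cav1, and which is highest for Hopx.

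**Figure D3:**
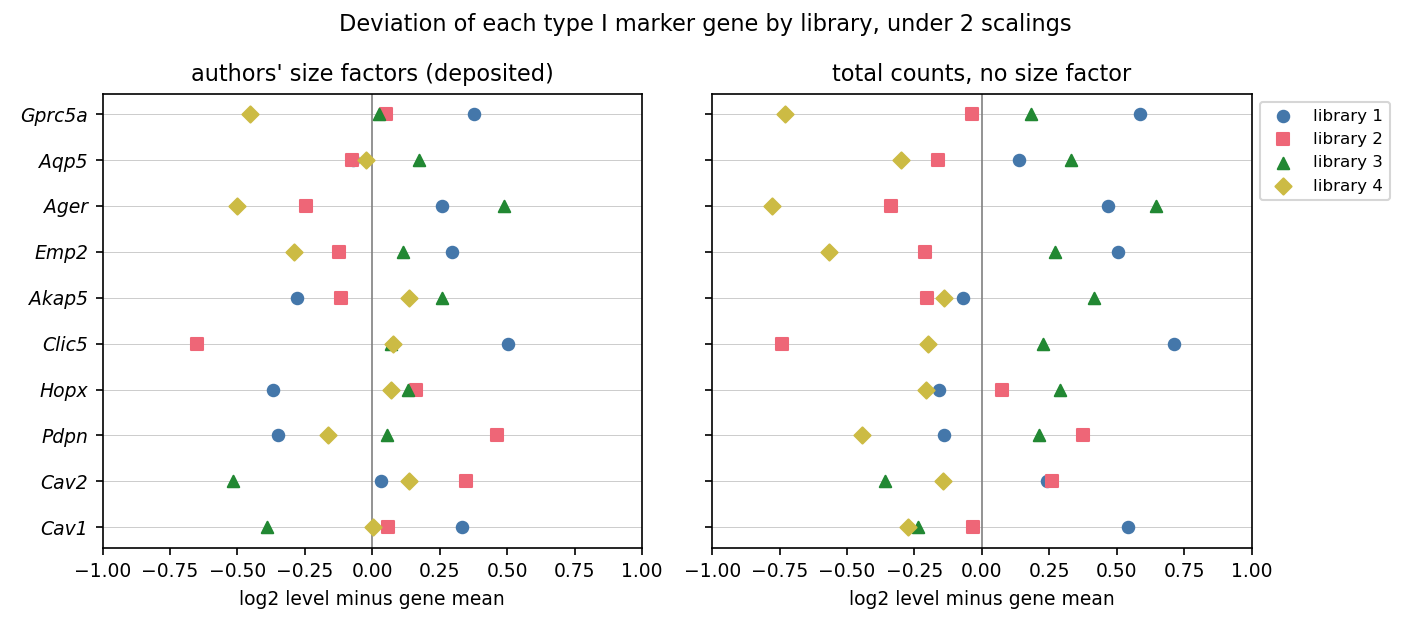
Log2 level of each type I marker gene in libraries 1 to 4 (symbols) minus the gene's mean, on the deposited scale (left) and scaled to total counts (right). On the left each of libraries 1, 2 and 3 holds the highest value of some genes; on the right library 4 is lowest for 7 of 10.

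Across all genes, 2 of 13156 tested varied between libraries beyond the trend for their level (0.0152%; edgeR quasi-likelihood dispersion, Benjamini-Hochberg adjusted p under 0.05), the noncoding RNA genes Xist and Tsix. This edgeR count rested on single libraries: it was 6 without library 1, and 0 without library 2 or library 3 (640 and 619 genes at an unadjusted p under 0.05). None of the 10 type I marker genes was among them, 0 of 10 at an unadjusted p under 0.05 in the same edgeR test (5.13% of all genes), and 0 of 10 were dispersion outliers in DESeq2 (0.441% of all genes). On simulated counts the edgeR test recovered only 30% of genes changed 4-fold in a single library. The widest range of a member was 2.23-fold on the deposited scale, so the absence of calls does not show that the members are stable. The widest spread relative to the trend was that of Clic5, at 2.16 times the trend (unadjusted p = 0.165, adjusted p = 0.997, edgeR), and then that of Ager, at 2.08 times. Aqp5 had the narrowest, at 0.120 times the trend (adjusted p = 0.998, edgeR). The coefficient of variation of the members ran from 8.43% to 30.8% with a median of 21.3%. For 3466 genes with at least 8.67 nRPKM in every library, the lowest value of any member, the median was 18.4%.

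**Figure D4:**
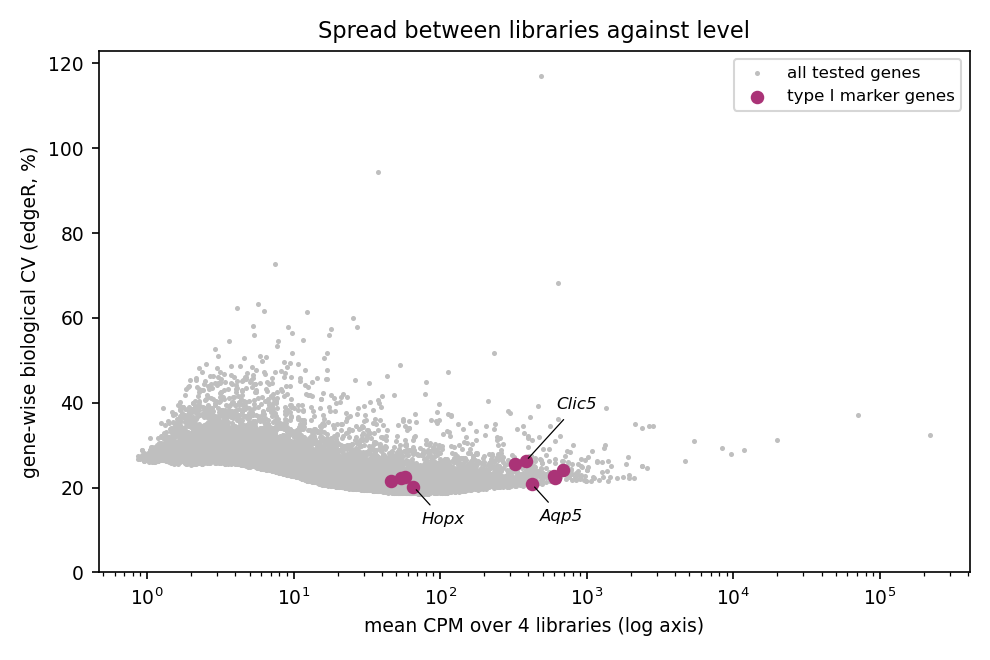
Gene-wise biological coefficient of variation in percent against mean CPM (counts scaled to library totals, log axis) for the 13156 tested genes (grey) and the 10 type I marker genes (purple). The members lie between 20.2% (Hopx) and 26.2% (Clic5). These edgeR estimates are drawn toward the trend for their level, so a place within the cloud is in part set by the estimate. Aqp5 is plotted at 20.9%, while the coefficient of variation of its levels in nRPKM was 8.43%.

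Likeness over the 4 libraries was measured as the root mean square difference of log2 levels, each centred on its mean, among 6024 other genes with a symbol and a mean of at least 5 nRPKM. The closest gene to Hopx was Ncoa1, a coactivator of nuclear receptors (0.00380 log2 units), and the closest to Aqp5 was Foxk1, a forkhead factor (0.00499). Cav2 was closest to Zdhhc13 (0.012), Emp2 to Serinc2 (0.0272), Akap5 to Tfdp1 (0.0289), Pdpn to Cmip (0.0329), Clic5 to Atg3 (0.0385), Ager to Crip1 (0.0394) and Cav1 to Nudt6 (0.0422). No member was the closest gene of another. The most alike members were Gprc5a and Emp2 (0.133), yet 208 other genes were closer to Gprc5a than Emp2 was. With 4 values a gene, many genes share a profile, so these distances are a description.

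Among 15 other genes known from type I cells, 12 had a mean of at least 1 nRPKM, 8 at least 10 and 2 at least 100, with a list median of 14.0. Over all genes the shares at these levels were 42.4%, 13.9% and 0.826%. Cldn18, the tight junction gene shared by both alveolar types, led with 419.5 ± 40.3 nRPKM (SD, n = 4), followed by the keratin gene Krt7 with 165 ± 34.9 and Lmo7, an adaptor of cell junctions, with 76.4 ± 22.4. Below 1 nRPKM lay Rtkn2, Spock2 and Igfbp2, which had at most 40, 9 and 3 reads in a library, while each of the 10 members had at least 496. The median of the 10 members lay between 45.1 and 58.9 nRPKM in the 4 libraries, against 12.6 to 15.1 for the 15 other type I genes, 99.7 to 228 for the type II markers and 49.0 to 146 for the transitional markers. The difference between these ranges was not tested. Sftpc, Sftpb and Lyz2 led the type II list and Clu, Krt19 and Krt18 the transitional list. Relative to Sftpc, the surfactant gene with the highest level, Gprc5a stood at 4.51%, 2.71%, 1.50% and 1.52% in libraries 1 to 4 and Ager at 2.86%, 1.51%, 1.42% and 1.01%. Both shares were highest in library 1, where Sftpc was lowest. The shares of the other members were also highest there, except those of Hopx (0.396%) and Pdpn (0.339%), which were highest in library 2.

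**Figure D5:**
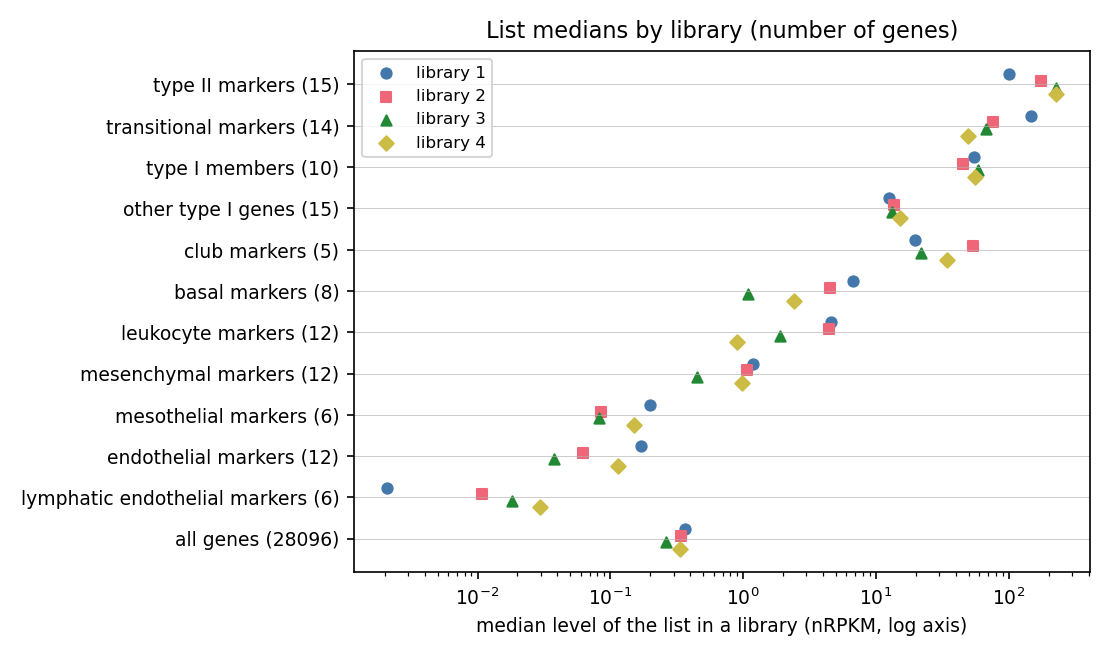
Median level in nRPKM (log axis) of each marker list in libraries 1 to 4 (symbols), with the number of genes in brackets. The medians of the 10 type I marker genes lie between 45.1 and 58.9 in the 4 libraries, below those of the type II markers and above those of the endothelial and mesenchymal markers.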

How the data were processed

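Polyadenylated RNA of cultured mouse type II cells was measured in 4 libraries, with a table each. Per the file headers, the deposited count is the number of reads that align uniquely to the gene model, and the other column holds the authors' RPKM after adjustment by size factors (nRPKM). GSNAP and mm9 are named in the submitters' processing notes, with version, annotation and strandedness not given in the sources used here. In all genes with reads, the deposited RPKM is the count multiplied by a library factor and a gene factor (tolerance 1e-09). Symbols were found for 25035 of 28096 identifiers in a RefSeq table (GRCm38.p6). Identifiers without one took 2.48% to 3.71% of counts.

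The members and gene lists were chosen with earlier results of these data known, and no list was tested. Named were all 10 members, the genes of their families and partners, the 3 highest genes of other lists, and the closest gene by profile, of which some are not reported here. Logarithms are log2(nRPKM + 1), which understates differences of low genes. Spread was tested on counts with edgeR 4.0.16 in R 4.3.3 (TMM, filterByExpr, intercept only; quasi-dispersion over trended prior against the F distribution). On simulated counts for this test over 13156 genes, the test recovered 30% of genes changed 4-fold in a single library, 96% of those changed 8-fold and 100% of those changed 16-fold, and 0 unchanged genes were called. Every simulated gene was drawn at the trended dispersion, with no scatter of genes about it, so recovery and false calls can differ in the real counts. DESeq2 1.42.0 was an alternative. A count of 0 allows up to 3 counts, 0.221 to 0.247 CPM. At most 0.959% of the 50-base words of a member's longest transcript occur in another gene (GENCODE M21).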

Additional observations from a re-analysis of the deposited data

How the results depend on the processing

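The number of genes that varied between libraries in the edgeR test depended on the settings, and the number of type I marker genes among them was 0 in each one. Without a filter on low counts 66 of 20579 genes were called, DESeq2 gave 58 dispersion outliers, and DESeq2 size factors or leaving out mitochondrial genes gave 2 as before. Leaving out a library gave from 0 to 6 calls: 6 without library 1, 0 without library 2 (640 genes at an unadjusted p under 0.05) and 0 without library 3 (619 such genes). In each of these edgeR fits 0 members had an unadjusted p under 0.05. CPM, which has no length correction, turned the order of 3 pairs of neighbours: the log2 difference was -0.94 for Ager minus Emp2, -0.060 for Emp2 minus Akap5 and -0.10 for Pdpn minus Cav2. The number of the 45 pairs with a fixed order was 35 in CPM, 39 with a pseudocount of 0.1, and 39 to 41 without a library. No mean level of a member moved by more than its SD under TMM scaling or total counts. Both scalings were set to the geometric mean factor of the deposited scale, which leaves means little room to move. Leaving out a library cannot move a mean of 4 values by as much as its SD, so only ranges are given. Leaving out a library gave means from 138 to 173 nRPKM for Ager and from 38.2 to 49.2 for Clic5. No paired analysis was possible because there is a single group. With 4 libraries, no permutation test could reach a p under 0.05.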
